A study of Mus musculus with 16 samples.

Results

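Genes of the cell division cycle were followed in sorted mouse heart cells around birth. The 60 members are cyclins and cyclin-dependent kinases (13 genes), DNA replication genes (15), transcription factors of the cycle (6), genes of mitosis and cytokinesis (20), and inhibitors with pocket proteins (6). They were chosen by name from 34821 gene names on the array, and each was read from the probe with the highest mean log2 value over all 16 arrays. All 4 groups came from wild-type CD1 mice. EL and EH were the ITGA6low and ITGA6high fractions of ERBB-2+ cells from embryonic hearts at E15.5. PL and PH were the ITGA6low and ITGA6high fractions of neonatal hearts at P2, sorted after non-myocytes had been removed with magnetic beads, so the P2 gate did not use ERBB-2. ITGA6 is integrin α6 (CD49f in the labels), a laminin receptor on the cell surface, and ERBB-2 is a receptor tyrosine kinase. Each group held 4 arrays from separate experiments, numbered 2, 3, 6 and 8 at E15.5 and 2, 3, 4 and 5 at P2. Each experiment pooled 20 to 30 embryonic or 15 neonatal hearts, so no value belongs to a single animal. Sorting gave at least 50000 cells per fraction, and 10 ng of total RNA was amplified for each array. In the lists below, values follow the order of these experiment numbers.

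The cell cycle runs from growth (G1) through DNA synthesis (S) and a second gap (G2) to mitosis (M). D-type and E-type cyclins with their kinases inactivate the pocket proteins and thereby release E2F factors, which switch on the genes for origin licensing, nucleotide supply and the replication fork. B-MYB and FOXM1 later switch on the mitotic genes. Mouse cardiomyocytes (CM) divide before birth and withdraw from the cycle in the days after it, many of them after a last round of DNA synthesis without cytokinesis. Cytokinesis needs anillin, the RhoA activator ECT2 and the centralspindlin complex.

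The sorted cells carried the transcripts their labels call for. The summed normalized signal intensity of 10 CM genes was 595537 to 645505 for EL, 762777 to 815040 for EH, 939668 to 1008580 for PL and 850692 to 929236 for PH. All 10 were well above background on every array. Of 8 atrial genes, 7 were higher in EH than in EL and 8 in PH than in PL, while all 6 ventricular genes were lower in EH and in PH. Transcripts of other cells were present too, mostly at E15.5. Col1a2 led a list of 10 fibroblast genes whose summed signal was 13207 to 22766 for EL, 7374 to 12219 for EH, 803 to 1755 for PL and 4504 to 7591 for PH. In PH most of that sum was 1 gene, Fbln1, at 5418 ± 1352. EL6 and EH6 stood apart from the other arrays. Their summed signal over 10 erythroid genes, led by Hba-a1, was 31018 and 34391, against 3969 to 4671 on the other EL arrays, 5601 to 17950 on the other EH arrays and 579 to 1967 at P2. EH6 also had the highest sum over 10 leukocyte genes, led by Csf1r, at 11540. Of the leukocyte genes, 3 of 10 were detected on all 4 EL arrays, 7 on all EH arrays and 2 on all arrays of PL and of PH. Of 8 smooth muscle genes the numbers were 6, 7, 4 and 4, and of 8 neural genes 3 in each group. Of the defining markers, Myh11 and Sox10 were above background on no array, and Ptprc and Lyz2 on 2 EH arrays only.

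Most members were measurable in every group. A probe counted as detected where the scanner software marked its spot as well above background. By this criterion 55 of the 60 were detected on all 4 arrays of at least 1 group and 52 on all 16 arrays. The 5 others were Ccne2 and Aurkb, detected on no array, Cenpf, detected on 2 EL arrays, Cdk6, on 2 EH arrays and 1 PL array, and Cdk1. Cdk1, the central mitotic kinase, gave 23.6, 14.8, 31.5 and 29.1 on the EL arrays, 23.9, 16.6, 27.7 and 25.1 on the EH arrays, 21.1, 12.3, 11.7 and 25.7 on the PL arrays and 14.8, 13.2, 19.6 and 23.6 on the PH arrays. The brightest of its 3 probes was detected on 7 of the 16 arrays and the others on 0 and 1. All lay at or near background, so the array gave no usable level for it. Cdk6, a partner of D-type cyclins, gave 13.9, 10.2, 11.8 and 3.84 on the EL arrays, 16.2, 9.40, 16.7 and 3.80 on the EH arrays, 11.7, 12.4, 46.5 and 3.86 on the PL arrays and 7.56, 4.54, 16.7 and 11.4 on the PH arrays. Aurkb, the kinase of the chromosomal passenger complex, gave 4.37, 4.27, 4.62 and 5.14 on the EL arrays, 3.94, 6.802, 4.22 and 4.34 on the EH arrays, 4.78, 4.68, 6.19 and 6.17 on the PL arrays and 4.64, 5.52, 5.15 and 5.68 on the PH arrays. These signals mark probes near the floor and say nothing of whether the transcripts were there. Tyms, Cdc6 and Ccnd1 were detected on all 8 arrays of E15.5, and at P2 on 4, 2 and 5 arrays. Over all probes the share detected was 35.7% to 46.5% per array.

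**Figure D1:**
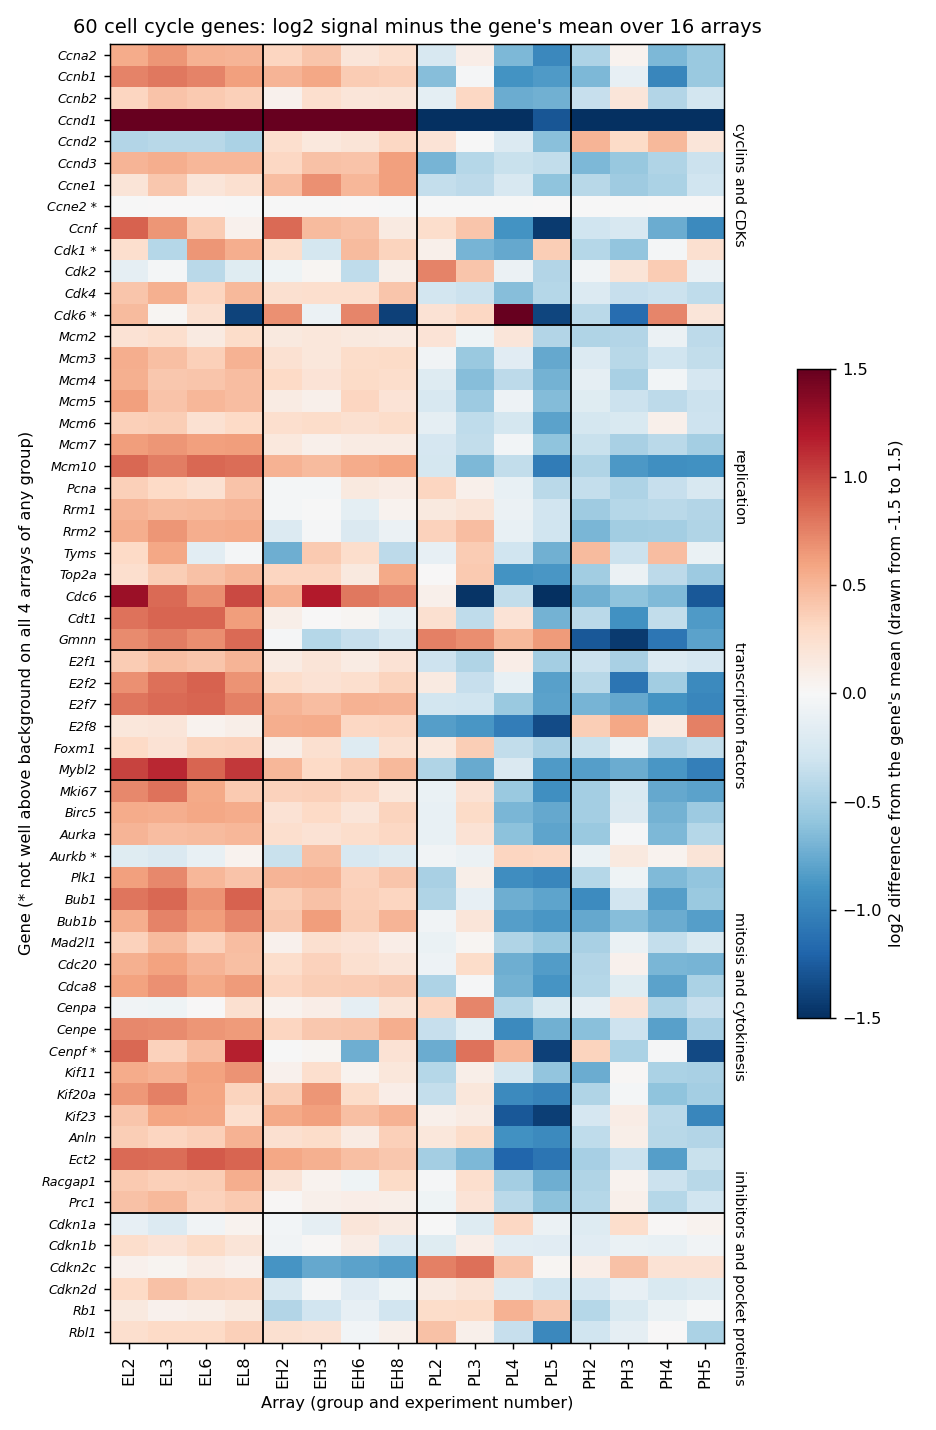
Each row is a member and each column an array, grouped EL, EH, PL and PH. Colour gives the log2 signal minus the gene's mean over the 16 arrays, from -1.5 (blue) to 1.5 (red), and an asterisk marks the 5 genes not detected on all arrays of any group. The 8 arrays of E15.5 are red over most rows of the first 4 classes, EL more so than EH, and the inhibitors do not share that colour.

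Both fractions had lower cell cycle signals at P2 than at E15.5. In the limma fit over all probes with Benjamini-Hochberg adjustment and a limit of 0.05, 42 of the 60 members were lower in PL than in EL and 1 was higher, where 10.0% of all 55681 probes were called lower and 9.70% higher. Between PH and EH, 35 members were lower and 1 was higher, with 8.37% and 9.12% of all probes called in those directions. Most of the 55681 probes were not well above background on all arrays of any group, while 55 of the 60 members were. Among the 22250 probes well above background on all arrays of some group, 23.1% were lower and 21.3% higher in PL, and 18.9% and 19.7% in PH. The median log2 fold-change of the members was -0.83 in PL against EL and -0.54 in PH against EH, and that of all probes was 0.01 and 0.03. Most shifts were moderate. With a 3-fold limit added, 4 members were lower in PL (Ccnd1, Cdc6, Ect2 and Mybl2) and 2 in PH (Ccnd1 and Cdc6), where 2.15% and 2.10% of all probes passed, and none was higher, where 1.60% and 1.30% passed. The 2 contrasts share no array, but they are not independent. Both use the residual variance of the same fit over all arrays. EL and EH arrays of the same number shared deviations from their group means (r from 0.19 to 0.45). PL and PH arrays of the same number gave r from -0.03 to 0.54. Both contrasts also carry the slide and purification differences between the stages. The 2 contrasts had 32 lower members in common, which is 76.2% of the 42 and 91.4% of the 35. This overlap is therefore not a count from independent tests. Over all probes, 3255 were lower in both, which is 58.2% of those lower in PL and 69.8% of those lower in PH. EL held the highest group mean of 45 of the 55 detected members, and the lowest mean lay in PH for 33 and in PL for 17.

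In pools of sorted cells, fewer cells that express a gene and less RNA of it per cell cannot be told apart. Nor can the stages be told apart from the slide or the purification, since all P2 arrays lay on 1 slide and only P2 cells passed the magnetic step. Marker lists of other cells, except the neural one, moved mostly in the same direction as the members. Of the fibroblast genes, 9 of 10 were lower in PL than in EL, and 8 of 10 were lower and 1 higher in PH than in EH. All 8 epicardial genes, led by Msln, were lower in both, with summed signals of 3043 to 4400 for EL, 957 to 2941 for EH, 35.8 to 126 for PL and 135 to 223 for PH. All 10 leukocyte genes and 7 of 10 endothelial genes were lower in PH than in EH, against 3 of each in PL against EL. Of 8 smooth muscle genes, led by Cnn1, 5 were lower and 1 higher in PL, and 7 were lower in PH. Their summed signals were 16470.0 to 19992 for EL, 19753 to 24134 for EH, 5482 to 6605 for PL and 5573 to 8600.1 for PH. Of 8 neural genes none was lower, and 3 were higher in PL and 2 in PH. Of the 10 CM genes, 8 were higher in PL than in EL and 5 in PH than in EH, and none was lower. The part of these marker changes in the lower cell cycle signals was not tested. Without EL6 and EH6, an exclusion chosen after their values were seen, 37 members were lower in PL and 26 in PH. Over all probes 4978 and 4046 were then called lower, against 5594 and 4661 with all arrays. The median log2 fold-change of the members was then -0.84 and -0.55, against -0.83 and -0.54 with all arrays. Scaling to the 75th percentile in place of quantile normalization shifted the median of all probes to 0.19 in both contrasts. It gave 38 lower members in PL and 23 in PH, all of them among the calls above, and called no member higher in PL. The mitosis genes lost with it in PH were Aurka, Cdc20, Kif11, Kif20a and Mad2l1, which left 8, and Ccna2 and E2f1 were lost as well.

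**Figure D2:**
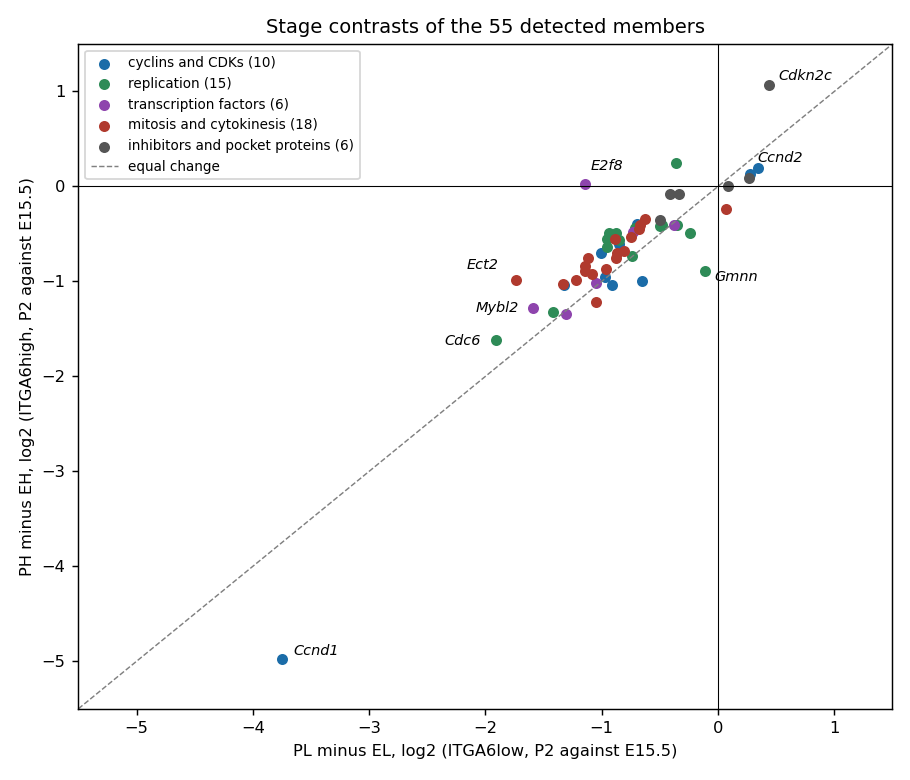
Points are the 55 detected members, coloured by class, with the log2 fold-change of PL against EL on the horizontal axis and of PH against EH on the vertical axis, and a dashed line where both are equal. Ccnd1 lies far from the rest at -3.75 and -4.98, Cdkn2c lies above 0 on both axes, and E2f8 lies at -1.14 and 0.02.

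Among the cyclins and kinases, 7 of 13 were lower in PL than in EL and 6 of 13 in PH than in EH, with class medians of -0.70 and -0.60 on the log2 scale. Ccnd1, the D-type cyclin that links growth signals to the G1 kinases, changed most. Values in parentheses are log2 fold-changes with their standard errors, first PL against EL and then PH against EH where a pair is given, and signals of different probes are not comparable. Ccnd1 (probe at chr7:152116202-152116261 of mm9) gave 323, 329.8, 325 and 361 on the EL arrays, 353, 304, 548 and 563 on the EH arrays, 23.3, 20.5, 23.2 and 34.2 on the PL arrays and 9.84, 15.3, 10.704 and 20.8 on the PH arrays. No P2 array reached the E15.5 range, and only 1 PH array had the probe above background. The level was 13.5-fold lower in PL (log2 fold-change -3.75 ± 0.25, adjusted p = 2.06e-07) and 31.5-fold lower in PH (log2 fold-change -4.98 ± 0.25, adjusted p = 2.85e-08). The size depends on the floor under these dim signals, since with normexp background it was -2.28 and -2.785, still called. Ccnd3, another D-type cyclin, gave 12526, 12800.3, 12487 and 12487 on the EL arrays, 10886, 11979.5, 11896 and 13461 on the EH arrays, 5439.8, 6552, 6989 and 6806 on the PL arrays and 5503, 5961, 6439.6 and 7026 on the PH arrays. Every P2 value lay below every E15.5 value, and the change was nearly the same in both fractions (-0.97 ± 0.09, adjusted p = 5.07e-06 and -0.95 ± 0.09, adjusted p = 7.67e-06). Ccnd2, the third D-type cyclin, gave 1860.0, 1883, 1879 and 1807 on the EL arrays, 2995, 2800.2, 2876 and 3127 on the EH arrays, 2905, 2501, 2178 and 1625 on the PL arrays and 3569.7, 3068, 3519 and 2838 on the PH arrays. It did not pass the test in either stage contrast (0.28 ± 0.14, adjusted p = 0.221 and 0.13 ± 0.14, adjusted p = 0.622). Of the 3 D-type cyclins, Ccnd1 and Ccnd3 were lower at P2, and Ccnd2 was above its E15.5 mean in both fractions without passing the test.

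Cdk4, the kinase that D-type cyclins activate, gave 9230.1, 9979, 8602 and 9683 on the EL arrays, 8178, 8212, 8207 and 9230.1 on the EH arrays, 5699, 5515, 4448 and 5141 on the PL arrays and 5984, 5457, 5540.2 and 5289 on the PH arrays. The stages did not overlap, with -0.85 ± 0.08, adjusted p = 4.78e-06 in PL and -0.60 ± 0.08, adjusted p = 0.000128 in PH. Ccne1, the E-type cyclin that drives entry into S phase, gave 1156, 1339, 1143 and 1191 on the EL arrays, 1392, 1627, 1429.8 and 1549 on the EH arrays, 788, 769, 856 and 663 on the PL arrays and 754, 699.6, 726 and 821 on the PH arrays. By this probe it was lower at P2 in both fractions (-0.65 ± 0.09, adjusted p = 8.82e-05 and -0.999 ± 0.09, adjusted p = 2.7e-06). The other Ccne1 probe, detected on 6 arrays, gave 0.34 (adjusted p = 0.603) in PL and -0.64 (adjusted p = 0.275) in PH, and the PL call was lost with the median over both probes (-0.16, adjusted p = 0.653). Ccna2, the cyclin of S and G2, gave 4274, 4579, 4169 and 4143 on the EL arrays, 3619, 3867, 3283 and 3451 on the EH arrays, 2465, 3116, 1825 and 1491 on the PL arrays and 2115, 3009, 1825 and 1975 on the PH arrays. Its stages did not overlap either, although PL3 and PH3 came close to the E15.5 range (-1.004 ± 0.20, adjusted p = 0.00207 and -0.70 ± 0.20, adjusted p = 0.0256). Ccnb1, which activates the mitotic kinase, gave 3656, 3789.8, 3673 and 3359 on the EL arrays, 3107, 3262, 2841 and 2788 on the EH arrays, 1403, 2163, 1174 and 1209 on the PL arrays and 1367, 2008, 1111 and 1491 on the PH arrays. It was 2.51-fold lower in PL (adjusted p = 0.000156) and 2.05-fold lower in PH (adjusted p = 0.00143), the PH call being lost with the median over its probes. Ccnb2, its close relative, passed the test in PL at -0.70 ± 0.20, adjusted p = 0.0232, and gave -0.39 ± 0.20, adjusted p = 0.235 in PH. Cdk2, the partner of cyclins E and A, gave 101, 109, 83.9 and 98.1 on the EL arrays, 106.5, 113, 85.0 and 118 on the EH arrays, 186, 149, 104 and 81.6 on the PL arrays and 107.4, 127, 145 and 104 on the PH arrays. Its groups overlapped in both contrasts and neither passed the test (0.34 ± 0.22, adjusted p = 0.358 and 0.19 ± 0.22, adjusted p = 0.658). Ccnf, the cyclin of an ubiquitin ligase, gave -0.91 ± 0.36, adjusted p = 0.105 and -1.04 ± 0.36, adjusted p = 0.0674.

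**Figure D3:**
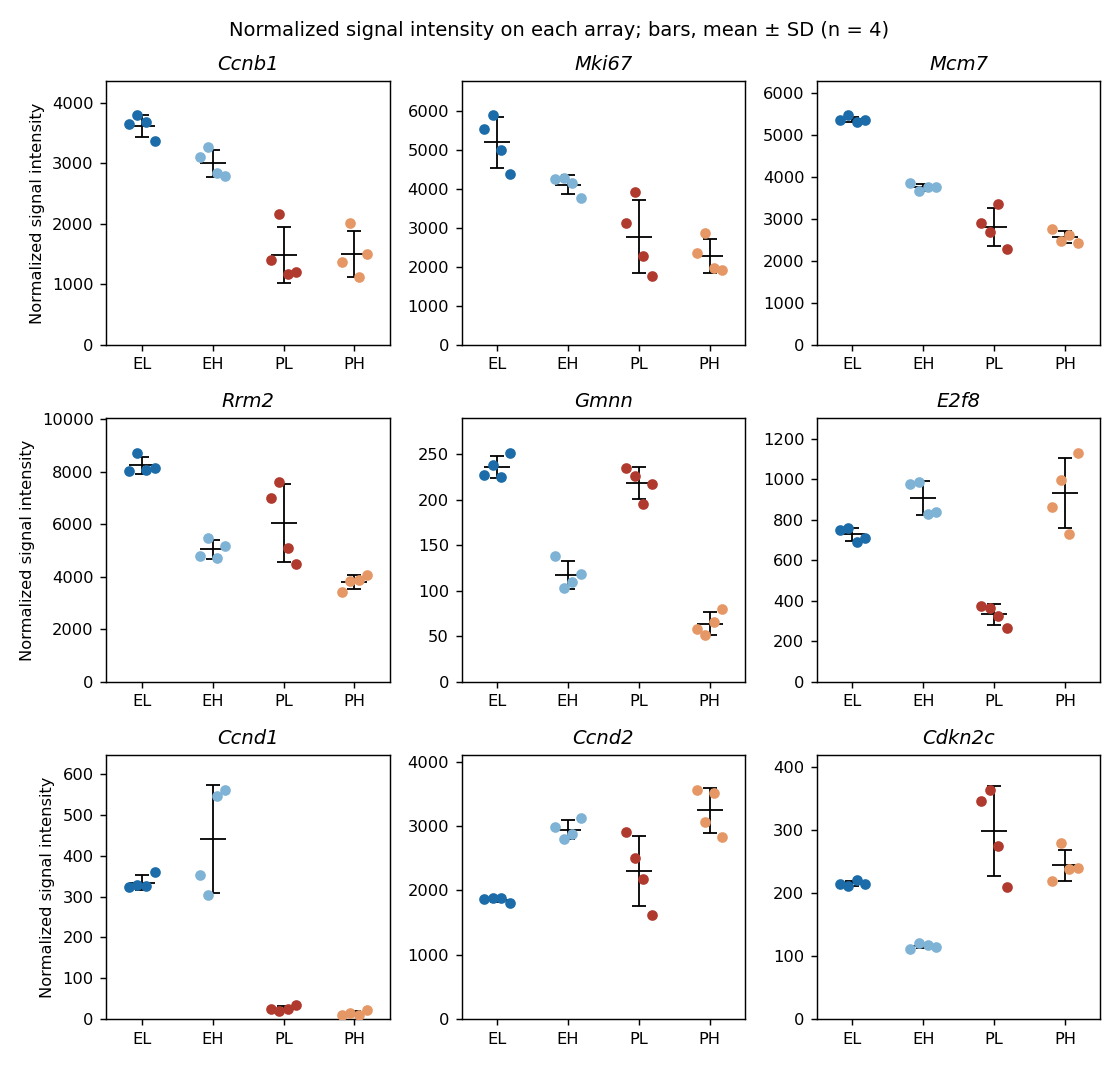
Normalized signal intensity (linear, from 0) of 9 members on every array, with the mean and SD of the 4 arrays of a group as bars. Ccnb1, Mki67, Mcm7 and Rrm2 have their highest values in EL, Gmnn and E2f8 separate PH from PL in opposite directions, Ccnd1 is near 0 at P2, and Cdkn2c is lowest in EH.

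Promoter sequences were compared because the replication genes and the mitotic genes fell together. RefSeq windows (build GRCm38.p6, 250 bases before to 50 after the start) were found for 50 of the 60 members. The letters TTTCCCGC, TTTCGCGC, TTTGCCGC and TTTGGCGC were searched as E2F motifs, TTTGAA and TTCGAA as the cell cycle homology region (CHR), and CCAAT as the CCAAT box, on both strands and with overlaps allowed. E2F letters stood in 6 of 13 replication genes (46.2%) and in 0 of 18 mitosis genes, against 2.6% of 27025 genes. CHR letters stood in 15 of 18 mitosis genes (83.3%) and in 3 of 13 replication genes (23.1%), against 21.7% of all genes. CCAAT was found in 83.3% and 76.9% of these classes and in 41.1% of all genes. Over all 50 members the shares were 22% for E2F, 46% for CHR and 74% for CCAAT. A match is a description of letters in this window and no evidence of binding. The bases just before the start are shown for 3 replication genes with E2F letters, 3 mitotic genes with CHR letters and E2f8, which departs from the others below. For Ect2, RefSeq lists 2 start sites and the first is shown. Capitals mark the matches on either strand, and all sequences are from RefSeq.
Cdc6 (chr11:98908001-98908150, plus strand): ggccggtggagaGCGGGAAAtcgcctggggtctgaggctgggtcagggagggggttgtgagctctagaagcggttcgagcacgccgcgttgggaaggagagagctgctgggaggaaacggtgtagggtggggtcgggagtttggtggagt
Mcm5 (chr8:75109349-75109508, plus strand): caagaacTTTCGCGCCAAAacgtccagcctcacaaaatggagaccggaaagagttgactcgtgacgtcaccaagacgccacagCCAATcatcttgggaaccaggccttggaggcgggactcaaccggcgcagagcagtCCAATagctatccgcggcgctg
Mcm6 (chr1:128359706-128359825, minus strand): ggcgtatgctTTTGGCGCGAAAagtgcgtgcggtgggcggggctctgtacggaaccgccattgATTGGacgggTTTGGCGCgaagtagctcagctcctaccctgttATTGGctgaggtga
Cdc20 (chr4:118437344-118437493, minus strand): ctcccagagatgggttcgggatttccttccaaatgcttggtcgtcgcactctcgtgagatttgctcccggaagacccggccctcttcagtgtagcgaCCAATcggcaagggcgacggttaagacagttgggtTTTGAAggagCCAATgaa
Kif11 (chr19:37376322-37376381, plus strand): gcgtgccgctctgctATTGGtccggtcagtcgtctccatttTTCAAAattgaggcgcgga
Ect2 (chr3:27153879-27154028, minus strand): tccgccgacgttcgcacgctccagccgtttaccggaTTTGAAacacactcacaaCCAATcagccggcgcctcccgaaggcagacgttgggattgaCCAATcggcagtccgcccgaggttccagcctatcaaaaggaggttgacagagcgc
E2f8 (chr7:48881597-48881746, minus strand): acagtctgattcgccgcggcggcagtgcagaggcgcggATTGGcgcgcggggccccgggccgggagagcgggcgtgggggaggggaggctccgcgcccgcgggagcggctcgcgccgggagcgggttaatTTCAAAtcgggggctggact
In Mcm5 and Mcm6, E2F letters on the 2 strands overlap in 1 run, Cdc20 and Ect2 carry CHR letters with CCAAT boxes, and the E2f8 window holds CHR and CCAAT letters but no E2F letters in the bases shown.

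Of the 15 replication genes, 11 were lower in PL than in EL and 12 in PH than in EH, with class medians of -0.74 and -0.49. Of the 6 helicase subunit genes Mcm2 to Mcm7, 5 were lower in PL and all 6 in PH. With 75th percentile scaling 10 replication genes were called lower in PL and 7 in PH, where Mcm2 (adjusted p = 0.109), Mcm4 (0.0606), Cdt1, Pcna and Rrm1 were lost. Mcm5, with overlapping E2F letters in its promoter above, gave 1654, 1453, 1528 and 1486 on the EL arrays, 1181, 1143, 1347 and 1248 on the EH arrays, 914, 742, 1028 and 688 on the PL arrays and 950.2, 868, 827 and 864 on the PH arrays. The stages did not overlap, and the level was 1.84-fold lower in PL (adjusted p = 5.24e-05) and 1.401-fold lower in PH (adjusted p = 0.00667). Mcm2 was the exception in PL and gave 723, 741, 688 and 753 on the EL arrays, 693, 703, 694 and 688 on the EH arrays, 722, 598, 708 and 461 on the PL arrays and 458, 459.8, 586 and 477 on the PH arrays. PL overlapped EL (-0.24 ± 0.12, adjusted p = 0.225), while all PH values lay below EH (-0.49 ± 0.12, adjusted p = 0.0118). Mcm10, which acts when origins fire, was 2.67-fold lower in PL (log2 fold-change -1.42 ± 0.15, adjusted p = 9.14e-06) and 2.50-fold lower in PH (log2 fold-change -1.32 ± 0.15, adjusted p = 2.21e-05). Cdc6, a licensing factor that loads the helicase, gave 74.9, 55.4, 49.9 and 61.2 on the EL arrays, 44.4, 70.01, 53.4 and 51.0 on the EH arrays, 32.4, 11.1, 23.9 and 7.49 on the PL arrays and 18.7, 20.3, 19.5 and 12.7 on the PH arrays. It was 3.74-fold lower in PL (adjusted p = 0.00175) and 3.07-fold lower in PH (adjusted p = 0.00651), with 1 detected array in each P2 group. Here too the size depends on the floor, and with normexp background it was -0.63 and -0.47, both called and below the 3-fold limit.

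Cdt1, the other loader of the helicase, fell in both contrasts, with -0.96 ± 0.19, adjusted p = 0.00245 in PL and -0.64 ± 0.19, adjusted p = 0.0361 in PH. Pcna, the sliding clamp of the polymerases, gave 4347, 4176, 3988 and 4556 on the EL arrays, 3324, 3333, 3772 and 3676 on the EH arrays, 4231, 3592, 3141 and 2572 on the PL arrays and 2643, 2465, 2672 and 2864 on the PH arrays. The test was passed in PH (-0.41 ± 0.12, adjusted p = 0.0323) and missed in PL (-0.36 ± 0.12, adjusted p = 0.0547), where PL2 reached the EL range. Rrm2, the regulated subunit of ribonucleotide reductase, gave 8042, 8734, 8088 and 8155 on the EL arrays, 4782, 5469, 4735 and 5187 on the EH arrays, 7002, 7595, 5097 and 4483 on the PL arrays and 3426, 3851, 3886 and 4056 on the PH arrays. It passed in PL (-0.48 ± 0.14, adjusted p = 0.0232) and not in PH (-0.41 ± 0.14, adjusted p = 0.0604). Rrm1, the large subunit, was lower in both (-0.50 ± 0.09, adjusted p = 0.00113 and -0.42 ± 0.09, adjusted p = 0.00489). Top2a, the topoisomerase of S phase and mitosis, gave 581, 629, 658 and 688 on the EL arrays, 609, 608, 540.3 and 720.1 on the EH arrays, 488, 639, 260.4 and 265 on the PL arrays and 338, 457, 369 and 333 on the PH arrays. PL3 lay within the EL range and PL4 and PL5 far below it (-0.74 ± 0.24, adjusted p = 0.0475, lost in 16 of 24 alternative settings with adjusted p up to 0.141), and PH gave -0.73 ± 0.24, adjusted p = 0.0543. Tyms, thymidylate synthase, gave -0.37 ± 0.30, adjusted p = 0.489 and 0.24 ± 0.30, adjusted p = 0.685 at signals near the detection limit. Gmnn, the inhibitor of Cdt1, is described with the fractions below.

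Transcription factors of the cycle had the largest class medians, -1.10 in PL against EL and -0.75 in PH against EH, and 5 and 4 of the 6 were called lower. Mybl2, which encodes B-MYB, gave 1211, 1308, 1092 and 1250.0 on the EL arrays, 843, 735, 769.5 and 840.4 on the EH arrays, 438, 355, 513 and 331 on the PL arrays and 337, 358, 326 and 295 on the PH arrays. The stages were far apart, at 3.01-fold lower in PL (adjusted p = 6.11e-07) and 2.42-fold lower in PH (adjusted p = 5.75e-06), and the other Mybl2 probe gave -1.76 and -1.29. E2f1, an activator of S phase genes, gave 857, 903, 879 and 937 on the EL arrays, 719.8, 754, 720.1 and 763 on the EH arrays, 531, 483, 707 and 464 on the PL arrays and 526, 472, 574 and 552 on the PH arrays. It was lower at P2 in both fractions (-0.73 ± 0.11, adjusted p = 0.000248 and -0.48 ± 0.11, adjusted p = 0.00708). E2f2, a related activator, gave -1.05 ± 0.18, adjusted p = 0.000806 and -1.02 ± 0.18, adjusted p = 0.00128. E2f7, an atypical E2F that represses the same promoters, gave 381, 395, 402 and 369.7 on the EL arrays, 310.2, 302, 315 and 310.4 on the EH arrays, 181, 177, 149 and 125 on the PL arrays and 135, 128, 117 and 111 on the PH arrays. It was lower in both contrasts by this probe (-1.31 ± 0.10, adjusted p = 8.29e-07 and -1.34 ± 0.10, adjusted p = 9.45e-07). The dimmer E2f7 probe gave 0.49 (adjusted p = 0.231) and 0.39 (adjusted p = 0.376), and the median over both probes -0.41 and -0.48, both called. Foxm1, the activator of mitotic genes, gave 371, 350.5, 379 and 383 on the EL arrays, 321, 357, 264 and 355 on the EH arrays, 337, 391, 234 and 215 on the PL arrays and 240.3, 282, 223 and 233 on the PH arrays. Its PL arrays overlapped EL, and the test was missed in both contrasts (-0.38 ± 0.17, adjusted p = 0.158 and -0.40 ± 0.17, adjusted p = 0.135).

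Of the 20 mitosis and cytokinesis genes, 17 were lower in PL than in EL, all except Aurkb, Cenpa and Cenpf, and 13 were lower in PH than in EH, all of them among the 17. The class medians were -0.90 and -0.73. Mki67, the common marker of cycling cells, gave 5540.2, 5896, 4995 and 4391 on the EL arrays, 4249, 4290.3, 4149 and 3776 on the EH arrays, 3130.0, 3915, 2274 and 1778 on the PL arrays and 2352, 2873, 1973 and 1916 on the PH arrays. PL lay below EL and PH below EH, while PL3 was above EH8 (log2 fold-change -0.96 ± 0.21, adjusted p = 0.00381 in PL and log2 fold-change -0.87 ± 0.21, adjusted p = 0.00872 in PH). Birc5, survivin of the chromosomal passenger complex, gave 9884, 9794, 10059.8 and 9884 on the EL arrays, 7851, 8293, 7631 and 8475 on the EH arrays, 6252, 8207, 4186 and 3959.6 on the PL arrays and 4729, 5791, 4106 and 4607 on the PH arrays. Cdca8, borealin of the same complex, gave -1.14 ± 0.16, adjusted p = 0.000117 and -0.84 ± 0.16, adjusted p = 0.00174 beside -0.88 ± 0.19, adjusted p = 0.00365 and -0.76 ± 0.19, adjusted p = 0.0112 for Birc5. Plk1, the kinase of mitotic entry, gave 3163, 3403, 2917 and 2775 on the EL arrays, 2938, 2969, 2610.4 and 2757 on the EH arrays, 1469.9, 2185, 1078 and 1044 on the PL arrays and 1533, 1967, 1299 and 1366 on the PH arrays. It was 2.22-fold lower in PL (adjusted p = 0.000783) and 1.85-fold lower in PH (adjusted p = 0.0061). Aurka, the spindle pole kinase, gave -0.81 ± 0.19, adjusted p = 0.00648 and -0.68 ± 0.19, adjusted p = 0.0219.

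The spindle checkpoint genes Bub1, Bub1b and Mad2l1, whose products hold anaphase until chromosomes are attached, were lower at P2 in both fractions by their brightest probes. Bub1b, the checkpoint kinase relative that had the largest PH change of the class, gave 338, 387, 358 and 384 on the EL arrays, 306, 357, 299.9 and 329 on the EH arrays, 223, 264, 131 and 126 on the PL arrays and 136, 148, 139 and 131 on the PH arrays. All P2 arrays lay below all E15.5 arrays (-1.05 ± 0.19, adjusted p = 0.0012 and -1.22 ± 0.19, adjusted p = 0.000446). Bub1 gave -1.33 ± 0.15, adjusted p = 2.13e-05 and -1.03 ± 0.15, adjusted p = 0.000256, and the kinetochore motor Cenpe gave -1.22 ± 0.15, adjusted p = 4.03e-05 and -0.98 ± 0.15, adjusted p = 0.000331. Mad2l1 gave -0.68 ± 0.12, adjusted p = 0.000885 and -0.45 ± 0.12, adjusted p = 0.0187. Its other probes were below 0 in both contrasts without passing, at -0.48 (adjusted p = 0.243) and -0.34 (adjusted p = 0.392) in PL, and with the median over the 3 probes Mad2l1 was called in neither (adjusted p = 0.368 in PL and 0.249 in PH). Cdc20, which lets the anaphase promoting complex end the checkpoint and has CHR letters above, gave -0.87 ± 0.22, adjusted p = 0.0115 and -0.70 ± 0.22, adjusted p = 0.0419, the PH call being lost in 13 of 24 alternative settings with adjusted p up to 0.117. Kif11, the motor that separates spindle poles, gave 212, 206, 218 and 229.6 on the EL arrays, 149.9, 171, 149 and 161 on the EH arrays, 106, 153, 119 and 95.7 on the PL arrays and 85.7, 145, 104 and 102 on the PH arrays. PL3 reached the EH range and PH3 came close to it, and both tests were passed (-0.89 ± 0.15, adjusted p = 0.000775 and -0.55 ± 0.15, adjusted p = 0.0231). Cenpa, the centromeric histone, gave 982, 979, 1026 and 1206 on the EL arrays, 1062, 1097, 928 and 1169 on the EH arrays, 1279.7, 1702, 763 and 869.9 on the PL arrays and 934, 1176, 745 and 805 on the PH arrays. PL2 and PL3 were the highest arrays of all and PL4 among the lowest, and neither contrast passed (0.07 ± 0.22, adjusted p = 0.935 and -0.24 ± 0.22, adjusted p = 0.567).

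Of the 6 cytokinesis genes named here, all passed as lower in PL, Anln only just, and 2, Ect2 and Kif20a, in PH, where 75th percentile scaling left Ect2. Anln, anillin of the cleavage furrow, gave 1833, 1778, 1816 and 2040.1 on the EL arrays, 1671, 1721, 1551 and 1822 on the EH arrays, 1601, 1720.0, 754 and 731 on the PL arrays and 1094, 1509.7, 1062 and 1049 on the PH arrays. PL2 and PL3 were near EL and PL4 and PL5 far below (-0.75 ± 0.25, adjusted p = 0.0495). That call was lost in 15 of 24 alternative settings, with adjusted p up to 0.147, and PH did not pass (-0.54 ± 0.25, adjusted p = 0.184). Ect2, the exchange factor that activates RhoA at the furrow, gave 1179, 1173, 1238 and 1198 on the EL arrays, 978, 945, 891 and 869 on the EH arrays, 459.9, 410.0, 288 and 305 on the PL arrays and 463, 523, 368 and 518 on the PH arrays. It had the largest PL change of the class, 3.34-fold lower (log2 fold-change -1.74 ± 0.14, adjusted p = 1.21e-06), and was 1.98-fold lower in PH (adjusted p = 0.000219). A dimmer Ect2 probe did not follow, with -0.72 (adjusted p = 0.224) and 0.89 (adjusted p = 0.122), so the Ect2 change rests on 1 probe, and the PH call was lost with the median over both (-0.05, adjusted p = 0.927). Racgap1, a centralspindlin subunit, gave 1608, 1569.8, 1584 and 1790.1 on the EL arrays, 1405, 1266, 1171 and 1493 on the EH arrays, 1214, 1459, 859 and 735 on the PL arrays and 895, 1264, 982 and 918 on the PH arrays. It passed in PL (-0.67 ± 0.18, adjusted p = 0.0189) and gave -0.40 ± 0.18, adjusted p = 0.181 in PH. Kif23, its motor partner, gave 157, 177, 177 and 141 on the EL arrays, 176, 181, 161 and 169.6 on the EH arrays, 125, 129, 49.0 and 44.2 on the PL arrays and 98.9, 128, 89.0 and 60.2 on the PH arrays, with -1.08 ± 0.33, adjusted p = 0.0316 in PL, a call lost with the median over its probes, and -0.92 ± 0.33, adjusted p = 0.0733 in PH. Prc1, the bundler of the central spindle, gave -0.63 ± 0.15, adjusted p = 0.00862 and -0.34 ± 0.15, adjusted p = 0.172, and Kif20a, a motor of the same structure, -1.12 ± 0.23, adjusted p = 0.00282 and -0.76 ± 0.23, adjusted p = 0.0363. The difference between the stage contrasts passed the threshold for no mitosis gene, Ect2 coming nearest (interaction 0.75 ± 0.20, adjusted p = 0.0721). The Ect2 interaction was called in 5 of 24 alternative settings, with adjusted p from 0.0221 to 0.205.

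In the signals of the cell cycle members, the P2 arrays differed among themselves far more than the E15.5 arrays. The median SD of log2 signal over the 55 detected members was 0.07 for EL, 0.09 for EH, 0.36 for PL and 0.21 for PH. For the 18 detected mitosis genes it was 0.08 in EL and in EH, 0.48 in PL and 0.25 in PH. PL3 was the highest PL array for 17 of these 18 and PH3 the highest PH array for all 18. PL2 and PL3 both lay above PL4 and PL5 for 17 of the 18 mitosis genes, but for 6 of the 15 replication genes. The median of the mitosis genes relative to each gene's own mean was -0.10, 0.18, -0.70 and -0.81 in PL, -0.45, -0.05, -0.64 and -0.49 in PH, and 0.51 to 0.56 in EL. For replication genes it was 0.01, -0.37, -0.12 and -0.71 in PL and -0.46 to -0.39 in PH. PL5 was the lowest PL array for 42 of the 55. The fibroblast sum of PL was 1755, 1016, 841 and 803, also higher on PL2 and PL3, and the atrial sum was 20095, 48299, 90572 and 26603, highest on PL4. The share of probes well above background was 39.8%, 39.3%, 36.0% and 35.7% on the PL arrays. Their median processed signal was 6.62, 6.86, 5.64 and 5.34, so both were higher on PL2 and PL3. On the PH arrays the share was 40.6%, 37.0%, 39.3% and 37.4%, lowest on PH3. The part of these sums and array values in the spread was not tested.

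**Figure D4:**
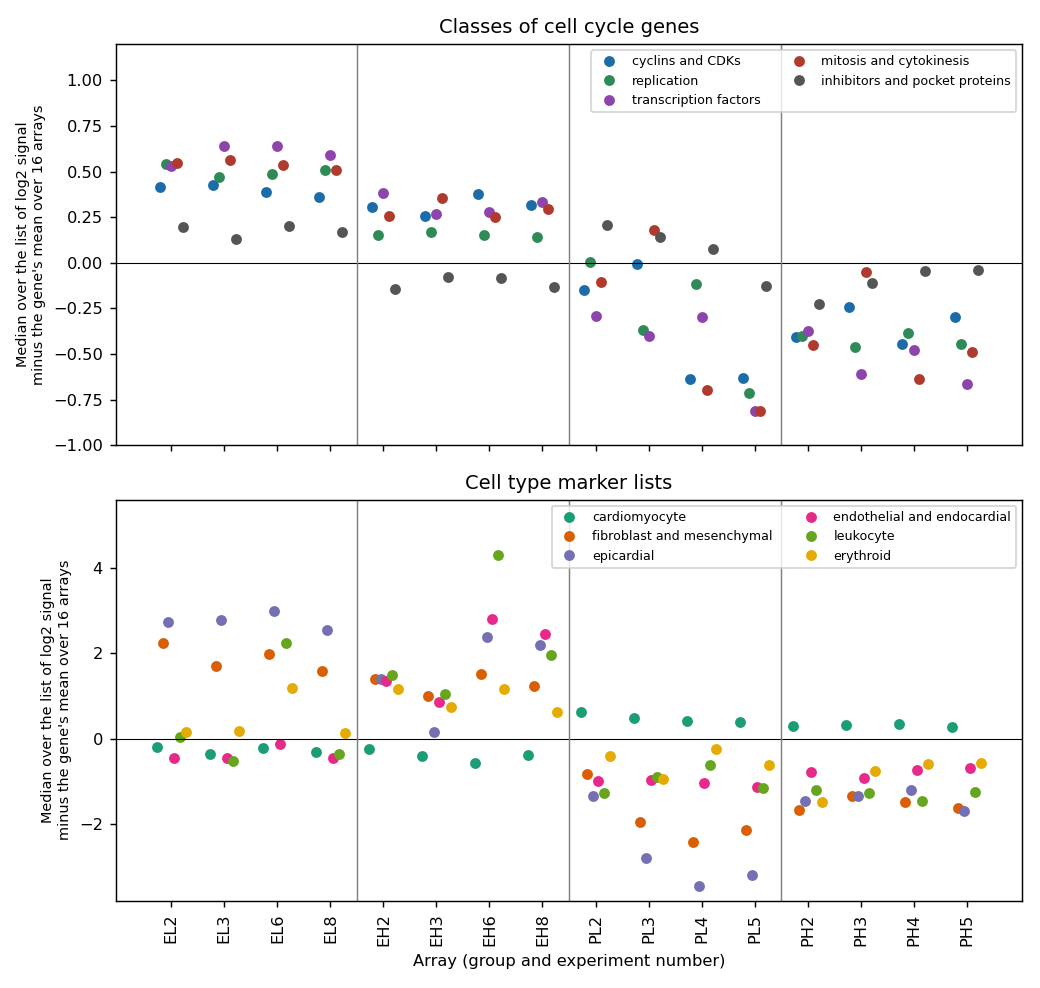
Upper panel, the median over each class of the log2 signal minus the gene's mean over 16 arrays, for every array. Lower panel, the same for 6 cell type marker lists. Mitosis medians in EL and EH keep to narrow ranges (0.51 to 0.56 and 0.25 to 0.35), those in PL spread from -0.81 to 0.18, and fibroblast, epicardial and leukocyte lists are higher at E15.5 than at P2.

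The inhibitors and pocket proteins had class medians nearer 0 across stages than the other classes, -0.13 in PL and -0.04 in PH. Of 6, 2 were lower in PL than in EL, none was lower in PH than in EH, and 1 was higher in both. Among the 22250 detected probes, 23.1% were lower and 21.3% higher in PL, and 18.9% and 19.7% in PH. With 6 genes, these counts cannot be told from those shares. With 75th percentile scaling none of the 6 was called in PL (adjusted p = 0.152 for Cdkn1b, 0.0847 for Cdkn2d and 0.0804 for Cdkn2c), and Cdkn2c stayed called in PH. Cdkn2c, an INK4 inhibitor of the cyclin D kinases, was the only member called higher at P2. Cdkn2c (probe at chr4:109333508-109333567 of mm9) gave 214, 211, 221 and 213 on the EL arrays, 111, 119.8, 118 and 115 on the EH arrays, 346, 363, 274 and 208 on the PL arrays and 219, 278, 238 and 238 on the PH arrays. PH lay wholly above EH (2.10-fold, log2 fold-change 1.07 ± 0.14, adjusted p = 8.72e-05). PL overlapped EL through PL5, and that call (0.44 ± 0.14, adjusted p = 0.04) was lost in 15 of 24 alternative settings, with adjusted p from 0.0007 to 0.12. Cdkn2d, a further INK4 inhibitor, gave 3093, 3406, 3248 and 3234 on the EL arrays, 2135, 2485, 2244 and 2404 on the EH arrays, 2768, 2869.7, 2195 and 2044 on the PL arrays and 2106, 2314, 2146 and 2207 on the PH arrays. It was lower in PL (-0.41 ± 0.10, adjusted p = 0.00909), and PH gave -0.08 ± 0.10, adjusted p = 0.707. Cdkn1b, an inhibitor of cyclin E and A kinases, gave 1193, 1148, 1221 and 1141 on the EL arrays, 963, 1012, 1080.4 and 867 on the EH arrays, 879, 1066, 896 and 886 on the PL arrays and 889, 932, 921 and 965 on the PH arrays. It was lower in PL as well (-0.34 ± 0.08, adjusted p = 0.00575), and PH gave -0.08 ± 0.08, adjusted p = 0.607. Cdkn1a, the related inhibitor that p53 induces, gave 837, 791, 879 and 944 on the EL arrays, 885, 826, 1027 and 1000.2 on the EH arrays, 904, 794, 1127 and 858 on the PL arrays and 795, 1091, 923 and 940.3 on the PH arrays. All 4 groups overlapped, at 0.08 ± 0.12, adjusted p = 0.749 and 0.00 ± 0.12, adjusted p = 0.998. Rb1, the retinoblastoma protein gene, gave 295, 278, 283 and 295 on the EL arrays, 196, 218, 244 and 219 on the EH arrays, 324, 325, 384 and 354 on the PL arrays and 197, 227, 248 and 260.5 on the PH arrays, with 0.27 ± 0.09, adjusted p = 0.0635 in PL and 0.08 ± 0.09, adjusted p = 0.65 in PH. Rbl1, a related pocket protein gene that E2F factors switch on, gave 239.7, 248, 248 and 258 on the EL arrays, 239, 235, 197 and 212 on the EH arrays, 274, 214, 159 and 103 on the PL arrays and 164, 184, 204 and 145 on the PH arrays, with -0.50 ± 0.22, adjusted p = 0.164 and -0.35 ± 0.22, adjusted p = 0.377.

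The fractions differed less than the stages. At E15.5, 9 members were lower in EH than in EL and 2 were higher, with 3.83% of all probes called lower and 4.27% higher. At P2, 6 members were lower in PH than in PL and 2 were higher, with 5.41% and 6.15% of all probes in those directions. Among the 22250 detected probes the shares were 8.93% lower and 9.77% higher in EH, and 12.1% and 14.1% in PH. The members' shares at P2, 10% and 3.33%, were below those of the detected probes in both directions. With single arrays left out, the lower members at P2 numbered 4 to 11, with 11 without PL5. The comparison for lower members therefore rests on single arrays. With the 3-fold limit only Gmnn at P2 passed, where 0.916% of all probes did so downward and 1.73% upward, and at E15.5 no member passed beside 0.454% and 1.17%. The class medians of EH against EL were -0.03 for cyclins, -0.29 for replication, -0.30 for transcription factors, -0.26 for mitosis and -0.33 for inhibitors. Those of PH against PL lay between -0.26 and 0.00, and the median over all members ran from -0.21 without PL5 to 0.01 without PL3. No mitosis gene was called in either fraction contrast, and 17 of 20 had a fold-change below 0 in EH, as had 31781 of all 55681 probes. A fit with the experiment number as a replicate block pairs the fractions at both stages. With it 1 member was higher and 12 were lower in EH, Kif11 of the mitosis genes among them, and 2 were higher and 8 lower in PH. Scaling to the 75th percentile shifted the median of all probes to -0.18 at E15.5 and -0.14 at P2, and gave 0 higher and 8 lower members in EH and 1 higher, E2f8, and 5 lower in PH. The E15.5 arrays lay on 2 slides. Within the slide that held 2 EL and 3 EH arrays, 0 members were higher and 2 lower. The other slide held a single EH array, EH6, too few for a value within it. With slide as a term in the fit 1 was higher and 9 were lower. Without EL6 and EH6 the counts were 1 higher and 8 lower in EH and 2 higher and 4 lower in PH. Markers of other cells moved both ways at E15.5. All 10 leukocyte genes were above 0 in EH against EL, with a median of 1.82, and 2 were called higher. Of 8 smooth muscle genes, 3 were called higher and 1 lower. Of the endothelial markers, 7 of 10 were higher in EH than in EL, with summed signals of 2048 to 2280 in EL and 4145 to 10002 in EH. The epicardial genes were all below 0 in EH, with a median of -1.36 and 1 of 8 called, and their summed signals given above did not overlap. Of the fibroblast genes, led by Col1a2, 8 of 10 were below 0 with a median of -0.59 and none was called lower, with summed signals of 13207 to 22766 in EL and 7374 to 12219 in EH. The part of these cells in the differences was not tested.

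**Figure D5:**
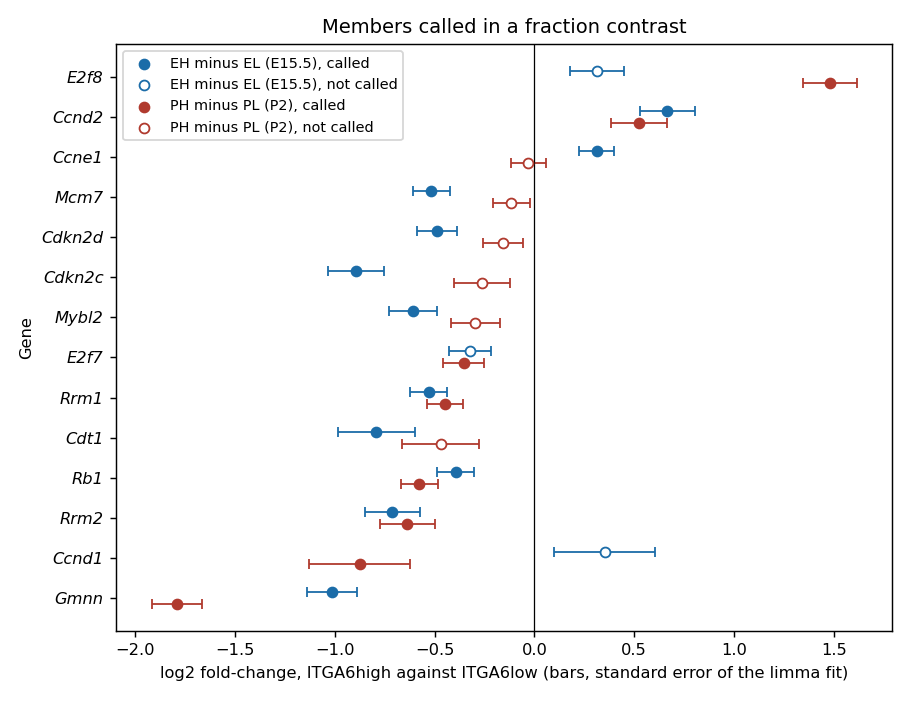
Log2 fold-change of ITGA6high against ITGA6low, with the standard error of the limma fit, for every member called at E15.5 (blue) or P2 (red), filled where called and open where not. Gmnn lies at -1.01 and -1.79, E2f8 at 0.31 and 1.48, and Ccnd2, Rrm1, Rrm2, Gmnn and Rb1 are called the same way at both stages.

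Of the 9 members lower in EH, 5 were replication genes. Gmnn, geminin, had the largest difference in both stages. Gmnn (probe at chr13:24843715-24843774 of mm9) gave 228, 238, 226 and 252 on the EL arrays, 138, 104, 109.8 and 118 on the EH arrays, 235, 227, 195 and 218 on the PL arrays and 57.9, 51.4, 66.0 and 80.2 on the PH arrays. The fractions did not overlap at either stage, and EL and PL did. It was 2.02-fold lower in EH than in EL (log2 fold-change -1.01 ± 0.13, adjusted p = 0.000132) and 3.46-fold lower in PH (log2 fold-change -1.79 ± 0.13, adjusted p = 3.45e-07). Across stages it was lower in PH than in EH (-0.89 ± 0.13, adjusted p = 0.00017) and gave -0.11 ± 0.13, adjusted p = 0.654 in PL. A dimmer Gmnn probe ran the same way between fractions at smaller size, -0.69 (adjusted p = 0.092) and -0.80 (adjusted p = 0.0369). Across stages that probe gave 0.54 (adjusted p = 0.13) in PL and 0.44 (adjusted p = 0.246) in PH, and the PH call was lost with the median over both probes (-0.23, adjusted p = 0.337). Rrm1 gave 2427, 2355, 2385 and 2424 on the EL arrays, 1661, 1688, 1537 and 1761 on the EH arrays, 1889.7, 1953, 1605 and 1398 on the PL arrays and 1173, 1265, 1283 and 1251 on the PH arrays. Its fractions did not overlap at E15.5 (-0.53 ± 0.09, adjusted p = 0.00186) or P2 (-0.45 ± 0.09, adjusted p = 0.00413). Rrm2, its partner subunit listed above, was also apart at both stages (-0.71 ± 0.14, adjusted p = 0.0045 and -0.64 ± 0.14, adjusted p = 0.00662).

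Mcm7 gave 5340.4, 5461, 5298 and 5356 on the EL arrays, 3851, 3650.1, 3752 and 3755 on the EH arrays, 2898, 2675, 3362 and 2279 on the PL arrays and 2752, 2468, 2621 and 2423 on the PH arrays. The EH arrays all lay below EL (-0.52 ± 0.09, adjusted p = 0.00265), and PH against PL gave -0.12 ± 0.09, adjusted p = 0.584. Cdt1 gave 2584, 2692, 2709 and 2273 on the EL arrays, 1569, 1482, 1499.6 and 1370.4 on the EH arrays, 1739.7, 1131, 1700.2 and 899 on the PL arrays and 1116, 784, 1141 and 817 on the PH arrays. EH was lower throughout (-0.79 ± 0.19, adjusted p = 0.0207), PH overlapped PL (-0.47 ± 0.19, adjusted p = 0.173), and the fit with the experiment number as a replicate block called the P2 difference too (adjusted p = 0.0129). Mybl2 was lower in EH than in EL (-0.61 ± 0.12, adjusted p = 0.00582) and gave -0.30 ± 0.12, adjusted p = 0.173 at P2. The inhibitors Cdkn2c and Cdkn2d were lower in EH (-0.89 ± 0.14, adjusted p = 0.000888 and -0.49 ± 0.10, adjusted p = 0.00661), with -0.26 ± 0.14, adjusted p = 0.332 and -0.16 ± 0.10, adjusted p = 0.472 at P2. Rb1 was lower in the ITGA6high fraction at both stages, with no overlap (-0.39 ± 0.09, adjusted p = 0.0162 and -0.58 ± 0.09, adjusted p = 0.000691). Ccnd1 at P2 (-0.88 ± 0.25, adjusted p = 0.0387) and E2f7 at P2 (-0.35 ± 0.10, adjusted p = 0.0414) were called lower in PH, and the calls were lost in 12 and 16 of 23 alternatives. For Ccnd1, with 1 PH array above background, normexp background left -0.18. Kif11, the mitosis gene furthest from 0 at E15.5 among those detected, gave -0.46 ± 0.15, adjusted p = 0.103 without the replicate block and adjusted p = 0.0158 with it. Bub1b gave -0.35 ± 0.19, adjusted p = 0.363 at P2, and Mcm4 and Ect2, on the other side of 0, gave 0.26 ± 0.11, adjusted p = 0.203 and 0.37 ± 0.14, adjusted p = 0.143.

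Higher in the ITGA6high fractions were Ccnd2, Ccne1 and E2f8. Ccnd2, listed above, was 1.59-fold higher in EH without overlap (log2 fold-change 0.67 ± 0.14, adjusted p = 0.00762) and 1.44-fold higher in PH (log2 fold-change 0.52 ± 0.14, adjusted p = 0.0244), where PL2 reached the PH range. Neither call passed with 75th percentile scaling (adjusted p = 0.0528 and 0.131). Ccne1 was 1.24-fold higher in EH (adjusted p = 0.0433), and this call was lost in 17 of 26 alternative settings, the replicate block among them (adjusted p = 0.0841), with adjusted p up to 0.792. At P2 Ccne1 gave -0.03 ± 0.09, adjusted p = 1. E2f8, an atypical E2F like E2f7, departed most from the other members. E2f8 (probe at chr7:56121860-56121919 of mm9) gave 751, 759, 692 and 712 on the EL arrays, 976, 985, 830.3 and 838 on the EH arrays, 376, 364, 326 and 264 on the PL arrays and 863, 997, 731 and 1132 on the PH arrays. PL was lower than every other group, and PH overlapped EL and EH. PH was 2.79-fold higher than PL (log2 fold-change 1.48 ± 0.14, adjusted p = 4.37e-06), EH against EL gave 0.31 ± 0.14, adjusted p = 0.233 without overlap, PL was 2.21-fold lower than EL (log2 fold-change -1.14 ± 0.14, adjusted p = 2.94e-05) and PH against EH gave 0.02 ± 0.14, adjusted p = 0.961. Its promoter is shown above. The 2 atypical E2F genes had the same direction across stages in PL and opposite directions between fractions at P2.

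The difference between the fraction contrasts was tested as an interaction, PH minus PL less EH minus EL. It was past the threshold for 2 of the 60 members, 1 in each direction, where 1.81% of all probes were above 0 and 1.35% below. E2f8 had an interaction of 1.17 ± 0.19, adjusted p = 0.00365, and adjusted p lay between 0.000983 and 0.0309 over the alternatives. Gmnn had an interaction of -0.78 ± 0.18, adjusted p = 0.0287, which was lost in 12 of 24 alternatives, among them the replicate block (adjusted p = 0.0906), and the other Gmnn probe gave -0.10 (adjusted p = 0.932). Ccnd1 gave -1.23 ± 0.36, adjusted p = 0.0992, and was called in 2 of 24 alternatives, with adjusted p down to 0.0356. The median interaction over the 60 members was 0.19, against 0.01 over all probes. It was 0.028 without PL5, 0.102 without PL4 and 0.267 without PL2, so its size rests on single PL arrays.

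Other genes of the pathway, in lists that no member belongs to, were also mostly lower at P2. Of 30 further replication genes, 18 were lower in PL than in EL and 15 in PH than in EH, and none was higher. Among the 22250 detected probes, 23.1% were lower in PL and 18.9% in PH. Uhrf1, which carries DNA methylation across the fork, had mean signals of 3417 ± 52.98 for EL, 2179.8 ± 34.4 for EH, 1553 ± 364 for PL and 1001 ± 91.1 for PH (mean ± SD, n = 4). It was called in all 4 contrasts, at -1.17 and -1.13 across stages and -0.65 and -0.61 between fractions. Cdc7, the kinase that fires origins, was detected on all EL arrays and on no PL array, which makes it at least 2.60-fold lower in PL (adjusted p = 0.000229), and its activator Dbf4 was lower in PH (-0.92 ± 0.23, adjusted p = 0.0114). The bound sets the EL mean against the higher of the dim probe's signal and the lowest detected signal on each PL array. Pola1, a polymerase α subunit, was lower in EH (-0.68 ± 0.13, adjusted p = 0.00375), as were Rfc4 and Chaf1b, while Hells in EH gave -0.67 ± 0.32, adjusted p = 0.292. Of 40 further mitosis genes, 21 were lower in PL and 13 in PH. Smc2 and Cdca5, which condense and hold sister chromatids, gave -1.01 ± 0.16, adjusted p = 0.000508 and -0.94 ± 0.13, adjusted p = 0.000131 in PH. Kifc1 and Kif18a had the largest PL differences and did not pass (-1.68 ± 0.66, adjusted p = 0.101 and -1.39 ± 0.47, adjusted p = 0.0517). In EH only Spc24 and Melk were lower, Cep55 gave -0.73 ± 0.21, adjusted p = 0.0531, and at P2 no gene of this list passed between fractions, with Cdc25c at 0.52 ± 0.30, adjusted p = 0.404 and Pbk at -0.52 ± 0.18, adjusted p = 0.093.

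Of 15 further inhibitors and quiescence genes, 6 were lower and 1 higher in PL, and 3 were lower and 2 higher in PH. In PL that is 40% and 6.67%, beside 23.1% and 21.3% of the detected probes. In PH it is 20% and 13.3%, beside 18.9% and 19.7%. Cdkn1c, an imprinted CDK inhibitor, was measured as a mean signal of 5103 ± 310.4 for EL, 7182 ± 256 for EH, 336 ± 68.4 for PL and 643 ± 191 for PH (mean ± SD, n = 4). The stages did not overlap, and it was lower in both fractions (log2 fold-change -3.94 ± 0.18, adjusted p = 7.24e-09 in PL and log2 fold-change -3.53 ± 0.18, adjusted p = 2.61e-08 in PH). PH was above PL (0.91 ± 0.18, adjusted p = 0.00304). Btg2, an antiproliferative gene, was lower at P2 (-1.32 ± 0.19, adjusted p = 0.000131 and -1.92 ± 0.19, adjusted p = 6.26e-06) and higher in EH than in EL (0.94 ± 0.19, adjusted p = 0.00508). Tob1, a relative of Btg2, was lower in EH (-0.79 ± 0.15, adjusted p = 0.00443), and Wee1, the kinase that delays mitosis, was lower in PH than in PL (-0.79 ± 0.17, adjusted p = 0.00704). Of 10 targets of p53, 5 were lower and 1 higher in PL and 4 lower and 2 higher in PH, beside the same shares of detected probes. Plk2 was lower at P2 (-1.49 ± 0.28, adjusted p = 0.00143 and -1.47 ± 0.28, adjusted p = 0.00193) and in the ITGA6high fraction (-0.998 and -0.97), Ccng1 was higher at P2 (1.06 ± 0.09, adjusted p = 9.39e-07 and 0.56 ± 0.09, adjusted p = 0.000313), and Zmat3 was higher in EH (0.67 ± 0.12, adjusted p = 0.00293). Gdf15 at P2 gave -0.68 ± 0.23, adjusted p = 0.0765.

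Immediate early genes, which cell dissociation can induce, were measured as a sign of handling. Of 9, 6 were higher in EH than in EL, and 4 were lower in PL than in EL and 8 in PH than in EH. The shares of detected probes in those directions were 9.77%, 23.1% and 18.9%. Between the P2 fractions they were 14.1% higher and 12.1% lower. At P2 between fractions, 1 was higher and 1, Jun, lower (-0.54 ± 0.13, adjusted p = 0.0154), with Fosb at -0.82 ± 0.33, adjusted p = 0.156. Atf3 had mean signals of 1814 ± 368 for EL, 6043 ± 780.4 for EH, 816 ± 251 for PL and 579 ± 160.3 for PH (mean ± SD, n = 4). It was higher in EH (1.75 ± 0.26, adjusted p = 0.000598) and lower in PH than in EH (-3.42 ± 0.26, adjusted p = 8.12e-07), Egr1 was lower at P2 in both fractions (-1.08 ± 0.28, adjusted p = 0.0123 and -1.96 ± 0.28, adjusted p = 0.000177), and Junb was higher in EH (1.29 ± 0.30, adjusted p = 0.0148). Their part in the differences of the cell cycle genes was not tested.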

How the data were processed

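Microarrays measured RNA from 16 samples of sorted mouse heart cells, 4 in each group, and groups were taken from the sample labels. Each sample was hybridised in 1 colour (Cy3). The deposited scanner files hold the processed intensity of each spot from Agilent Feature Extraction 10.7.3.1, per the file headers, with probe positions on mm9. The authors deposited a table of log2 values, whose columns had a correlation of 1 with log2 of the processed intensity after quantile normalization, the normalization named in the study's methods. Here processed intensity was averaged over the spots of a probe, leaving out spots flagged as outliers (432 probes had more than 1 spot). The averages were quantile normalized and then put on the log2 scale. These values were fitted with limma 3.58.1 in R 4.3.3 on all 55681 probes and 16 arrays, with 4 contrasts and their interaction. P-values were moderated and two-sided, and adjusted by Benjamini-Hochberg over all probes at a limit of 0.05. Adjusted p in the text comes from this fit unless another is named, and the number of arrays limits its precision. For a single probe the smallest two-sided exact permutation p of 4 against 4 arrays is 0.0286. Signals are the antilog of normalized log2 values, with no further unit, and depth has no counterpart on arrays. Over all probes the median processed signal was 5.34 to 14.7 per array.

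A gene was read from its probe with the highest mean log2 over the 16 arrays. The 60 members had 87 probes, 39 members having 1 probe and 21 several. Members, lists and tests were chosen with earlier results of these data known. Named genes were a fixed set of regulators, the largest rise and fall of each class in each contrast, the members called between fractions, and the 2 largest absolute differences of each further list. A few others stand beside them for their role. Values of a few genes of the further lists are not reported here. The fits were tested on simulated data with known changes. No 2 of the arrays held identical values.

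EL2, EL8, EH2, EH3 and EH8 lay on slide 1, EL3, EL6 and EH6 on slide 3 with another scan day, and all P2 arrays on slide 2. EL and EH arrays of the same number shared deviations from their group means (r = 0.25, 0.19, 0.45 and 0.38), so these numbers were taken to pair the E15.5 fractions, a pairing that comes from the data and the shared experiment number. At P2 the values were 0.38, 0.18, -0.03 and 0.54. In the replicate block fit, the experiment was a fixed term for the fraction contrasts and the interaction, which pairs the fractions at both stages. For the 2 stage contrasts it was a random block, with a consensus correlation of 0.147. Alternatives were 75th percentile scaling, normexp background (offset 50), detected probes only, the deposited table, the replicate block, slide in the fit or 1 slide alone, the median over a gene's probes, a 3-fold limit, the methods' test (ANOVA, adjusted, then Tukey and the fold limit) and leaving out each array. Leaving out EL6 and EH6 together was chosen after seeing the data.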

Additional observations from a re-analysis of the deposited data

Results flagged for a closer look

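Within groups of 4 arrays, the highest or lowest array was set against the rest by the ratio of its gap to the group's range, for 220 groups of a detected member, at Dixon's 95% critical value. Chance alone flags about 1 in 20 such groups, and 7 passed. Ccnd3 was 12800 on EL3, beside 12490 to 12530 on the other EL arrays. Cdk4 was 9230 on EH8, beside 8178 to 8212. Mcm2 was 586.4 on PH4, beside 458.4 to 476.8, and Mcm10 was 235.2 on PH2, beside 169.4 to 176.3. Rrm2 was 8734 on EL3, beside 8042 to 8155. Anln was 1510 on PH3, beside 1049 to 1094. Cdkn1b was 1066 on PL3, beside 879.3 to 895.6. Each of these arrays was the high one of its group.

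The fraction contrast differed between the stages by the interaction term of the limma fit for 2 of the 60 members, 1 above 0 and 1 below, beside 1.81% of all probes above 0 and 1.35% below. Gmnn had an interaction of -0.779 (adjusted p = 0.0287), with the ITGA6high fraction lower at both stages and by more at P2. It was lost in 12 of 24 alternative settings, the replicate block among them (adjusted p = 0.0906), and the other Gmnn probe gave -0.10 (adjusted p = 0.932). E2f8 had an interaction of 1.167 (adjusted p = 0.00365), with no overlap between fractions at either stage and the larger gap at P2.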

How the results depend on the processing

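The alternatives were run for the 60 members and not for single genes of the further lists. No member's value that passed the test changed direction under any of them. Of the 43 members called in PL against EL, 36 kept their call whichever single array was left out, as did 27 of 36 in PH against EH, 8 of 11 in EH against EL and 5 of 8 in PH against PL. Calls lost in PL were Anln, Ccnb2, Cdkn2c, Kif23, Racgap1, Rrm2 and Top2a, each without PL4 among others. Those lost in PH against EH were Aurka, Ccna2, Cdc20, Cdt1, Kif11, Kif20a, Mad2l1, Mcm6 and Pcna, each without PH2 or PH5 among others. Between fractions Ccne1, Cdt1 and Rb1 were lost at E15.5 and Ccnd1, Ccnd2 and E2f7 at P2, Rb1 without EH2 and Ccnd2 without PL4, PH2 or PH4. Dim probes limit Ccnd1, Cdc6 and Tyms at P2. The causes were not tested.

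With single arrays left out, members higher in EH against EL numbered 1 to 2 and lower 8 to 11. In PH against PL they numbered 1 to 4 higher (4 without PL2) and 4 to 11 lower (11 without PL5). In PL against EL they numbered 0 to 2 higher (2 without PL5) and 36 to 45 lower, and in PH against EH 1 higher and 27 to 39 lower. The interaction gave 1 to 2 above 0 and 0 to 2 below.

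With 75th percentile scaling, members higher were 0 in EH against EL, 1 in PH against PL and 0 in PL against EL, those lower in PH against EH were 23, and 0 had an interaction below 0. The normexp background gave 14 lower in EH against EL, 2 higher in PL against EL and 2 with an interaction above 0. With detected probes only, fewer tests were adjusted for, and 2 members were higher in PL against EL and 2 in each direction of the interaction. The replicate block gave 1 higher in EH against EL, since Ccne1 was lost, and 0 with an interaction below 0, since Gmnn was lost. It added Cdt1 (adjusted p = 0.0129) and E2f2 (0.0283) in PH against PL, E2f2 (0.0276), E2f7 (0.0216) and Kif11 (0.0158) in EH against EL and Top2a (0.04996) in PH against EH. With slide in the fit 1 member was higher in EH against EL, and on slide 1 alone, with fewer arrays, 0 were higher and 2 lower. Slide 3 alone held 1 EH array, too few for a count. Its fit stands only among the 26 alternative settings of EH against EL. Without EL6 and EH6, 1 was higher in EH against EL, 0 in PL against EL and 0 had an interaction below 0. The median over a gene's probes gave 1 higher in EH against EL, and 2 above and 0 below 0 in the interaction. The 3-fold limit left 0 and 0 in EH against EL, 0 higher and 1 lower in PH against PL, 0 and 4 in PL against EL, 0 and 2 in PH against EH and 0 and 0 in the interaction, and the methods' test gave the same counts in the 4 contrasts. The deposited table gave the same counts as the main values.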
